A study of Rattus norvegicus with 8 samples.

Results

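A set of 10 genes that reactive astrocytes and cells exposed to inflammatory cytokines are known to induce were followed in axons and cell bodies of cultured rat hippocampal neurons. They were listed by name as Chi3l1, Il1r1, Lcn2, Serpina3n, Timp1, Cd44, Osmr, S1pr3, Cxcl10 and Steap4. Of these 10, 9 were found by the gene symbol in the deposited tables, and Steap4 was found by its Entrez identifier through RefSeq, among 26405 Ensembl rat genes in all. Chi3l1 and Il1r1 were chosen by their differences in the axonal comparison, so the axonal differences of the 10 genes are given below as a description with no test. The other 8 were taken for their known roles, with earlier results of these data known.

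Embryonic hippocampal neurons had been kept for 10 to 14 days in microfluidic chambers, in which axons grow into a compartment of their own. Axons alone received soluble oligomeric Abeta(1-42) or vehicle for 24 h, so the cell bodies of either group were never treated directly. RNA of axons, and of cell bodies with the neurites around them, was sequenced in 4 groups of 2 samples: axons Abeta, axons control, soma Abeta and soma control. The labels do not state that duplicates came from separate cultures, so the spread between them may be technical. The deposited data are 2 tables of the authors' own DESeq2 comparisons, 1 per compartment, whose headers do not name the numerator. The positive side of a comparison means here the treatment with the higher level in genes whose log2 fold change is above 0. Which treatment that is, Abeta or vehicle, cannot be read from these tables. Reads per library were recovered from the digits of the deposited means. A library is known only by its side and a number, with 1 for the deeper of a side, and a normalized count is its reads divided by its size factor. In axons the libraries held 418695 and 417350 recovered reads on the positive side, against 288938 and 228515 for the negative side, and in soma 2695075 and 262971 against 3656302 and 290259.

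Astrocytes respond to injury and to cytokines by a change of gene expression called reactivity. Interleukin 1 acts through the receptor that Il1r1 encodes and through NF-kappaB, and oncostatin M acts through the receptor of Osmr together with gp130 and STAT3. Secreted proteins such as lipocalin 2, TIMP1 and the serpin of Serpina3n are among the products known to be induced in this way.

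The 250 bases before the RefSeq transcription start were searched in build GRCr8 for letters that such factors are known to bind, and all 10 genes had a promoter in that table. Searched on both strands were GGANNTTCC for NF-kappaB, TTCNNNGAA for STAT factors, GAAANNGAA for interferon response factors and TGANTCA for AP-1. The TATA box letters TATAAA were searched on the strand of the gene. The promoters of 4 genes are shown, of the gene with the largest axonal mean among the 10, of 2 secreted products with a match, and of the chemokine that was almost without reads. Matches are in capitals.

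Chi3l1, chr13:48193589-48193838, plus strand: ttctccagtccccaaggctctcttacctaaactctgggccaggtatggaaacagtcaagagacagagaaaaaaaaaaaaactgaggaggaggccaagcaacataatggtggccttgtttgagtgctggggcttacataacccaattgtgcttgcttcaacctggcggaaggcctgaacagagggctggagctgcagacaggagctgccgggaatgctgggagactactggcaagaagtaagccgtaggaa

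Lcn2, chr3:36081781-36082030, minus strand: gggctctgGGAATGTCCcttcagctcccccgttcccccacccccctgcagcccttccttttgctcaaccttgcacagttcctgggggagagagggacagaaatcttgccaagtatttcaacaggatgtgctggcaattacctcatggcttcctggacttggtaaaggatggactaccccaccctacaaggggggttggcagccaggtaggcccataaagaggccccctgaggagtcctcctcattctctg

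Serpina3n, chr6:129088142-129088391, plus strand: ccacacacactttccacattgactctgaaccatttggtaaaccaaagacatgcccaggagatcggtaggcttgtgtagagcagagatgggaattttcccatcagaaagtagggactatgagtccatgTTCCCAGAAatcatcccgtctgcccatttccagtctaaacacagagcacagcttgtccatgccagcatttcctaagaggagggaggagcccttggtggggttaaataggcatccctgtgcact

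Cxcl10, chr14:15988816-15989065, plus strand: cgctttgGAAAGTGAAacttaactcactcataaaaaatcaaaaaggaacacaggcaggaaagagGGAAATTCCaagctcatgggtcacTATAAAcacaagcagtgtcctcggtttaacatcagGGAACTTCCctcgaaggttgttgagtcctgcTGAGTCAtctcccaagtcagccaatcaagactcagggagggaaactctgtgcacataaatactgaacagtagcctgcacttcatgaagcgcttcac

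The Cxcl10 promoter held 5 matches, namely the interferon response letters from 243 bases, NF-kappaB letters from 186 and 127, a TATA box from 162 and AP-1 letters from 96 bases before the start. Lcn2 held GGAATGTCC from 242 bases and Serpina3n the STAT letters TTCCCAGAA from 123 bases before the start. Steap4 matched NF-kappaB from 178 and STAT from 66 bases, and Osmr matched AP-1 from 33 bases before the start. Chi3l1, Il1r1, Timp1, Cd44 and S1pr3 held none of these letters in this window, and no match overlapped another. The NF-kappaB letters were found in 3 of the 10 promoters and in 3.36% of all 33469 promoters of the table. The STAT letters were found in 2 of 10 and in 7.67% of all, AP-1 in 2 of 10 and in 6.34%, interferon response in 1 of 10 and in 8.12%, and TATA in 1 of 10 and in 8.06%. These counts describe letters in a window and say nothing of binding.

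The first comparison asks how the 10 transcripts differed between treatments in the axonal compartment. Of them, 9 lay on the positive side and Cxcl10 on the negative side, as deposited. In bulk RNA, fewer cells of a type and less RNA per cell cannot be told apart. An adjusted p was given for 4 of the 10 genes, as read from the authors' deposited table. Of these, 3, Chi3l1, Serpina3n and Cd44, were called at an adjusted p under 0.05 with the positive side higher and 0 with it lower. Among all 1321 genes with an adjusted p, 8.78% were called with the positive side higher and 14.2% with the negative side higher. The choice of genes used this contrast, so nothing is read from these counts.

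Chi3l1 (ENSRNOG00000003312) encodes a secreted chitinase-like glycoprotein that binds chitin without cleaving it. The positive-side axonal libraries held 594 and 308 normalized counts of it and the negative-side pair 38.9 and 23.0, from 1234 reads. Both positive-side libraries stood far above both others, the first higher than the second. The log2 fold change was 3.63 (SE 0.49) in the authors' deposited table, or 12.4-fold.

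Il1r1 (ENSRNOG00000014504), the signalling receptor of interleukin 1, reached 45.4 and 54.8 normalized counts in the positive-side pair. The negative-side libraries held 2 reads and 1 read of it, or 2.10 and 1.35 normalized counts. Its log2 fold change of 3.81 (SE 0.83) in the authors' deposited table was the largest of the 10 genes, and it rests on those few reads on the low side. The log2 ratio of its side means was 4.23 with a pseudocount of 1 and 3.03 with 5, where it was below the 3.67 of Chi3l1. That table gives it no adjusted p.

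The secreted products had different patterns. Lcn2 (ENSRNOG00000013973), lipocalin 2, which binds iron-carrying siderophores, reached 271 and 275 normalized counts on the positive side, against 55.7 and 4.05 in the negative-side pair. The positive-side libraries were alike and the negative-side ones were far apart, at 53 and 3 reads. Its log2 fold change was 2.16 (SE 0.99) in the authors' deposited table. From the recovered reads, the log2 ratio of side means was 3.15 with all libraries and 5.76 without negative-side library 1, so 1 library sets its size.

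Serpina3n (ENSRNOG00000010527), an inhibitor of serine proteases, had 103 and 89.2 normalized counts on the positive side against 14.7 and 12.2 on the negative side. Replicates of a side were close, and the sides were far from overlapping. The authors' deposited table gave a log2 fold change of 2.58 (SE 0.60), or 5.98-fold. Serpina3n belongs to a family of near-identical genes whose reads the authors' counting could have split or shared, so its values are uncertain. The family members Serpina3c and Serpina3m, named after their values were seen, had mean normalized counts of 4.74 and 2.62 in axons in the authors' deposited table.

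Timp1 (ENSRNOG00000010208), an inhibitor of matrix metalloproteases, was at 31.7 and 30.5 normalized counts on the positive side, against 16.8 and 9.45 in the negative-side pair. The sides did not overlap, and its log2 fold change was 1.05 (SE 0.75) in the authors' deposited table.

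Of the receptors at the cell surface, Cd44 (ENSRNOG00000006094), which binds hyaluronan, had 135 and 110 normalized counts against 34.7 and 21.6. Both positive-side libraries were above both negative-side ones. The log2 fold change was 1.96 (SE 0.55) in the authors' deposited table, or 3.89-fold. Its call is lost when p-values are adjusted over every gene with reads (adjusted p = 0.106, DESeq2 p-values).

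Osmr, S1pr3 and Steap4 were split within the negative side. Osmr (ENSRNOG00000033192), the oncostatin M receptor, was at 26.5 and 27.4 normalized counts on the positive side, against 4.20 and 31.1 in the negative-side pair, where library 2 was above both positive-side libraries. S1pr3 (ENSRNOG00000014524), a receptor for sphingosine 1-phosphate, had 26.5 and 23.5 against 2.10 and 14.9. Steap4 (ENSRNOG00000008602), a membrane metalloreductase of iron and copper, had 28.7 and 13.3 against 0 and 12.2. All 3 were higher in negative-side library 2 than in library 1, the opposite of Lcn2. Their log2 fold changes in the authors' deposited table were 0.52 (SE 0.82), 1.25 (SE 0.86) and 1.31 (SE 0.95). Without negative-side library 2 the log2 ratios of side means rose from 0.58 to 2.42 for Osmr, from 1.45 to 3.07 for S1pr3 and from 1.64 to 4.46 for Steap4. Without negative-side library 1 the ratio of Osmr was -0.20, that of S1pr3 0.71 and that of Steap4 0.74.

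Cxcl10 (ENSRNOG00000022256), a chemokine induced by interferons, had 4 reads in all in axons, 1 in positive-side library 1 and 3 in negative-side library 1. Its log2 fold change of -0.42 (SE 0.88) in the authors' deposited table rests on those 4 reads. A difference could not be detected at this depth.

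**Figure D1:**
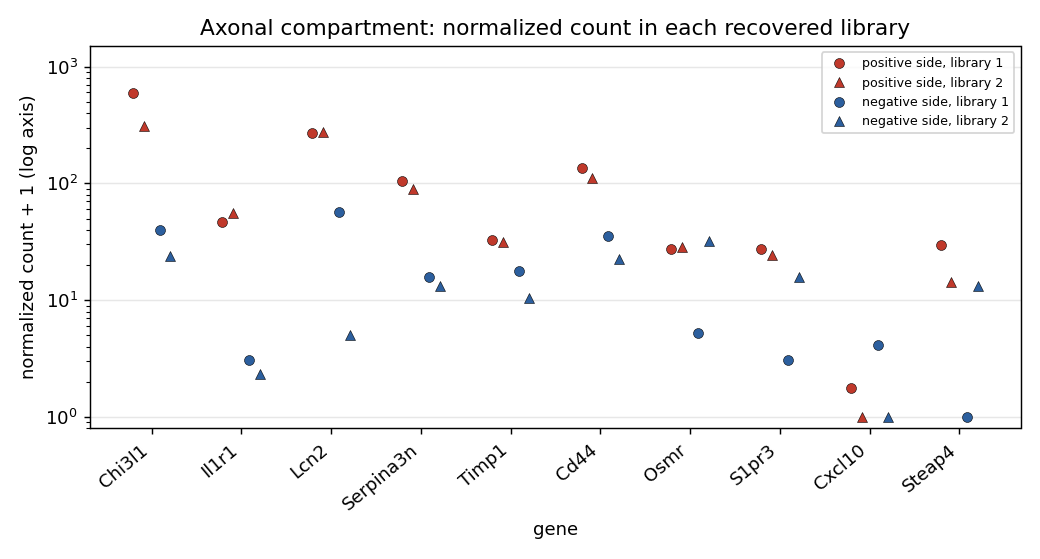
Normalized count plus 1, on a log axis, of each of the 10 genes in the 4 recovered axonal libraries, with circles for library 1 and triangles for library 2 of a side. Chi3l1, Il1r1, Serpina3n and Cd44 show both positive-side libraries well above both negative-side ones, while Osmr and Cxcl10 overlap and Lcn2 has negative-side libraries far apart.

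Sides that did not overlap, with the positive side higher, were seen for 8 of the 9 genes whose mean normalized count reached 10. Among all 7846 recovered genes with such a mean, 30.7% had that order. The contrast chose the genes, and nothing is read from this count. The median log2 fold change of the 10 genes was 1.63 in the authors' deposited table, beside -0.13 over all 23879 genes with reads. For abundant somatic transcripts (mean 100 or more) the median was 0.44, and 76.6% of them lay above 0. Of the 10 genes, 9 also lay above 0 after that shift of 0.44 was subtracted.

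Markers of other cell types moved with these differences in the same libraries. The 12 matched astrocyte markers summed to 7473 and 8631 RPM (reads per 1000000 recovered reads of a library) on the positive side, against 1485 and 2906 RPM. All 12 had axonal reads, 7 had an adjusted p and 5 were called on the positive side. Of these 5, Gfap (astrocyte filament protein) stood at 2.27, Slc1a3 (glutamate transporter) at 1.54 and Gja1 (connexin 43) at 1.60. Aldoc (aldolase C) was at 1.99 and Glul (glutamine synthetase) at 1.80, all as log2 fold changes of the authors' deposited table. Over the whole list 10 of 12 lay above 0 and the median was 1.46. Slc1a2 and Slc4a4, named after their values were seen, stood at -0.82 (SE 0.89) and -0.77 (SE 0.90) there. The 11 fibroblast and meningeal markers summed to 2116 and 3249 against 761 and 678 RPM, with Col1a1, Col1a2 and Fbln1 called, whose log2 fold changes were 2.28, 2.65 and 2.59 by the authors' deposited table. These 3 carry the sums, since 4 of the 11 lay above 0 and the list median was -0.05.

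Other marker lists went the opposite way or overlapped. The 14 microglial and macrophage markers, none of them at 0 in axons, summed to 346 and 129 against 526 and 722 RPM, with 0 called by the authors' DESeq2 test and 2 at an unadjusted p under 0.05. No marker of this list had an adjusted p, so none could be called, and 3 of the 14 lay above 0. The 2 with the highest axonal means, Csf1r (a growth factor receptor) and Cx3cr1 (fractalkine receptor), stood at -1.83 (SE 0.73) and -0.90 (SE 0.73) in the authors' deposited table. The 9 endothelial and mural markers summed to 184 and 69.5 against 401 and 319 RPM, led by the vascular receptors Flt1 at -1.66 and Kdr at -0.22 in the authors' deposited table. The 10 oligodendrocyte markers summed to 287 and 266 against 305 and 162 RPM, with the myelin enzyme gene Cnp at 1.18 in the authors' deposited table. The 11 neuronal markers, all with axonal reads, summed to 2458 and 2585 against 1665 and 3475 RPM, so the sides overlapped. Map2 (a dendritic microtubule protein) and Stmn2 (a growth cone protein) had log2 fold changes of 0.32 (SE 0.54) and 0.86 (SE 0.45) in the authors' deposited table. Over the whole list 5 of 11 lay above 0, the median was -0.19, and Tubb3 (neuronal tubulin), named after its value was seen, stood at -0.64 (SE 0.55) in the authors' deposited table. Genes without any somatic read held 2.84% and 1.26% of recovered axonal reads of the positive-side pair against 5.68% and 4.69% on the negative side. The part of these lists in the differences of the 10 genes was not tested.

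**Figure D2:**
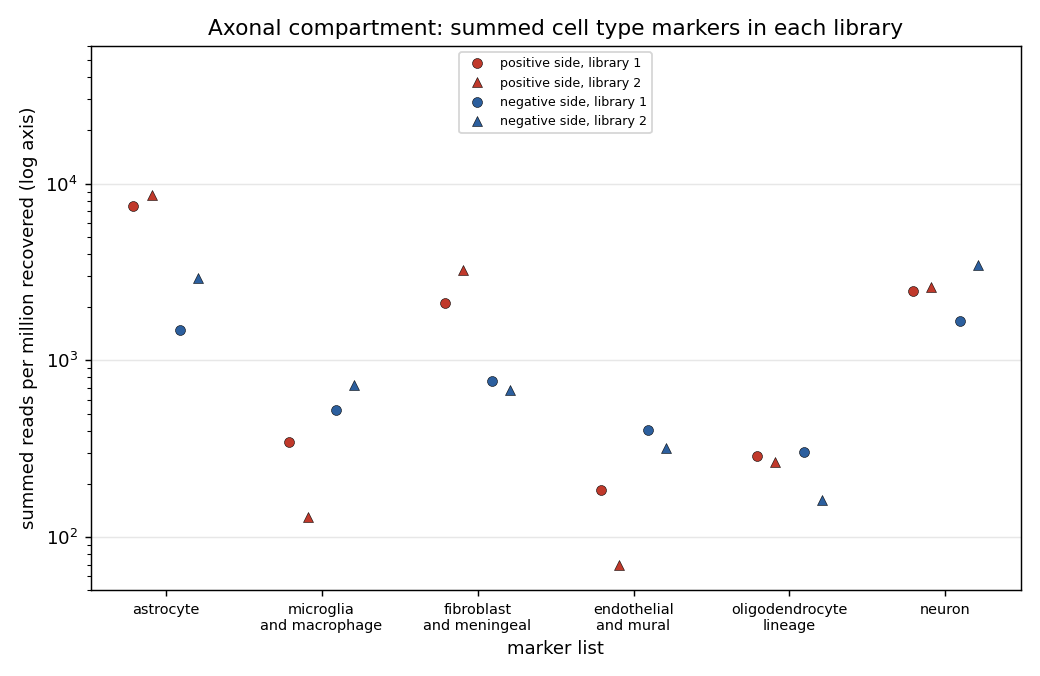
Summed RPM (reads per 1000000 recovered reads), on a log axis, of 6 lists of cell type markers in the 4 axonal libraries. Astrocyte markers lie at 7473 and 8631 on the positive side and at 1485 and 2906 on the negative side, microglial and endothelial markers lie lower on the positive side, and neuronal markers overlap.

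Other genes of the same programmes were counted from fixed lists. Of 13 pan-reactive astrocyte genes, 8 are members described above and 6 had an adjusted p. Of those 6, 5 were called on the positive side, with Cp (ceruloplasmin), Vim (vimentin) and Gfap beside Cd44 and Serpina3n. The list was drawn up with results of these data known and shares genes with the members, so it is no independent support. Hspb1, a small heat shock protein, stood at 2.90 (SE 0.96) and Aspg, an asparaginase, at -1.33 (SE 1.03) in the authors' deposited table, both without an adjusted p and named after their values were seen. The median log2 fold change of the 13 genes in axons was 1.96.

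Sets that separate kinds of reactive astrocytes were also counted. Of 13 genes of the neuroinflammatory kind, 1 was called, the complement component C3 at 2.80 (SE 0.42) in the authors' deposited table, and the list median was -0.21. It was the 1 gene of the list with an adjusted p, and over the 5 genes with an axonal mean of at least 10 the median was 0.99, of the opposite sign. The median over all genes also changed sign with this filter, from -0.13 with reads to 0.15 over the 8032 with such a mean. Of 12 genes of the ischaemic kind, 0 were called by DESeq2, and 0 had an adjusted p that would have allowed it, with 1 at an unadjusted p under 0.05 and a list median of -0.45, or 0.21 over the 4 genes with an axonal mean of at least 10. The 2 with the highest mean summed over both compartments, S100a10 (a calcium-binding protein) and Ptx3 (a pentraxin), stood at 1.61 (SE 0.70) and -0.34 (SE 0.99) in the authors' deposited table.

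Around the interleukin 1 receptor, 0 of 32 pathway genes were called, 3 were at an unadjusted p under 0.05 and the median log2 fold change was 0.25, Il1r1 included. Only 1 of the 32 had an adjusted p. Its signalling kinase Irak1 stood at 0.73 (SE 0.64) and Tab2, an adaptor of the kinase complex, at -0.54 (SE 0.67) in the authors' deposited table. The ligands Il1a and Il1b and the coreceptor Il1rap, named after their values were seen, had axonal mean normalized counts of 4.54, 3.83 and 4.94 there. The coreceptor had 6.05 and 5.48 against 4.20 and 4.05 normalized counts, sides that lay close together, whereas Il1r1 was at 45.4 and 54.8 against 2.10 and 1.35.

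Of 24 genes around oncostatin M and gp130, 4 had an adjusted p and 1 was called, the transcription factor Stat3. It had 108 and 137 normalized counts against 47.3 and 21.6, and stood at 1.68 on the log2 scale (SE 0.56, adjusted p = 0.0154, DESeq2) in the authors' deposited table. Il6st, the gp130 chain that pairs with Osmr and was named after its value was seen, stood at 0.81 (SE 0.58, adjusted p = 0.366, DESeq2) in that table. Oncostatin M itself (Osm), named after its value was seen, had a mean normalized count of 1.01 in axons there.

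The lists around Timp1, S1pr3, Serpina3n, Cd44 and Chi3l1 each held at least 1 called gene. For Serpina3n, Cd44 and Chi3l1 this was fixed in advance, since each was itself called and belongs to its list. Of 24 genes of TIMP inhibitors and metalloproteases, 2 had an adjusted p and 1 was called, Timp3. It stood at 1.89 (SE 0.67, adjusted p = 0.0244, DESeq2) in the authors' deposited table, with 37.0 and 117 against 18.9 and 16.2 normalized counts. Of 13 genes of sphingosine 1-phosphate, only 1 had an adjusted p and it was called, the lipid phosphatase Plpp3. Its log2 fold change was 2.72 (SE 0.61, adjusted p = 0.000348, DESeq2) in that deposited table of the authors. Of 17 serpins, 4 had an adjusted p and 3 were called. These were Serpina3n, the collagen chaperone Serpinh1 at 1.92 and the protease inhibitor Serpine2 at 2.64, log2 values of the authors' deposited table. Of 19 genes around CD44, 2 had an adjusted p and 1 was called, Cd44 itself. Of 10 chitinase-like proteins and receptors, 2 had an adjusted p and both were called, Chi3l1 and Cd44. Genes without an adjusted p could not be called. Among all 1321 genes with one, 8.78% were called with the positive side higher.

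Lists with no called gene included that of Cxcl10. Among 28 chemokines and their receptors 0 were called by DESeq2 and 4 were at an unadjusted p under 0.05, but no gene of this list had an adjusted p. Cxcl13 and Cx3cl1 (fractalkine), the 2 with the highest mean over both compartments, stood at -0.54 (SE 1.00) and 0.98 (SE 0.79) in the authors' deposited table, the first at an axonal mean of only 1.58. Cxcl12, with the highest axonal mean of the list, stood at 2.50 (SE 0.76) in the authors' deposited table. Cxcl1 was at 1.57 (SE 0.80) there and Cxcl6, at a lower mean, above both. Ccl21, also at a lower mean, went the other way, at -2.10 (SE 1.06) in the authors' deposited table. These 4 genes, the ones at an unadjusted p under 0.05, were named after their values were seen. Of the 27 chemokine genes with axonal reads, 15 lay above 0. The list median was 0.20, or 1.28 over the 7 with an axonal mean of at least 10. Among 25 interferon-stimulated genes 0 were called, 1 had an adjusted p and 1 was at an unadjusted p under 0.05. Of the 25, 10 lay above 0 and the median was -0.39, or 0.39 over the 8 with an axonal mean of at least 10. Over all 8032 genes with such a mean the median was 0.15. B2m (the light chain of class I molecules) was at 1.12 (SE 0.55) in the authors' deposited table. Among 10 STEAP and lipocalin partners 1 had an adjusted p, 0 were called and 0 were at an unadjusted p under 0.05. The lipocalin receptor Slc22a17 stood at 0.84 (SE 0.52) and Tfrc (transferrin receptor) at 0.62 (SE 0.66) in the authors' deposited table.

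By the likeness of both deposited fold changes, the 5 genes with a symbol nearest to Chi3l1 among 7304 with an axonal mean of at least 10 were Gsta1, Itm2a, Mdk, Cp and Il1r1. Their distances in the plane of the axonal and somatic log2 fold change were 0.22, 0.22, 0.27, 0.29 and 0.42. Gsta1 (a glutathione transferase) had 78.6 and 142 normalized counts against 9.45 and 1.35, and Mdk (midkine, a growth factor) had 23.4 and 47.0 against 0 and 1.35. Unlike Chi3l1, both were higher in positive-side library 2 than in library 1.

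The second comparison asks whether the 10 transcripts differed in cell bodies when axons alone were treated. None did by the authors' test, since 0 of the 10 passed an adjusted p under 0.05 (DESeq2) and each had an adjusted p of 1.00 in the authors' deposited table. Over all 18995 genes tested 0% were called and 2 had an unadjusted p under 0.05, none of them among the 10. The smallest unadjusted p of the 10 was 0.374, for Timp1. This contrast was not used to choose them.

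Chi3l1 stood at 41.4 and 67.3 normalized counts in the positive-side somatic libraries, against 47.6 and 81.3 for the negative side. The sides overlapped, and the shallow library of either side was above the deep one. The authors' deposited table gave -0.18 (SE 0.52), with a 95% interval from -1.19 to 0.83. Il1r1 had 21.6 and 33.7 against 29.9 and 9.38, the last from 3 reads, and a log2 fold change of 0.20 (SE 0.57) in the authors' deposited table.

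Lcn2 followed the depth of the library and not the side. It had 57.6 and 54.5 normalized counts in the deep libraries and 10.1 and 12.5 in the shallow ones, the last from 3 and 4 reads, and its log2 fold change was 0.02 (SE 0.58) in the authors' deposited table. Cd44 was even across libraries, at 124 and 104 against 121 and 125 normalized counts, and stood at -0.08 (SE 0.47) in the authors' deposited table.

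Timp1, S1pr3 and Osmr had somatic sides that did not overlap, with the positive side higher. Timp1 had 29.3 and 33.7 against 20.8 and 15.6 normalized counts, S1pr3 62.0 and 57.2 against 48.9 and 34.4, and Osmr 13.5 and 16.8 against 12.3 and 12.5. These were 3 of the 7 genes averaging 10 or more in soma, beside 7.42% of all 11048 recovered genes with such a mean. The log2 differences were small, at 0.49 (SE 0.55), 0.36 (SE 0.51) and 0.15 (SE 0.58) by the authors' deposited table. Between the deep libraries alone the log2 ratio was 0.47 for Timp1, 0.34 for S1pr3 and 0.12 for Osmr, where the SD over all genes averaging 10 or more was 0.33. Between the shallow libraries it was 1.06, 0.72 and 0.40, with an SD of 0.75 over all genes. Microglial markers were also higher on the positive side within each depth, at 2064 against 1459 RPM (deep) and 1262 against 1054 (shallow). Astrocyte markers, with 10 of 12 recovered, had that order too, at 3374 against 3098 and 4404 against 4162. Fibroblast and meningeal markers were at 219 against 185 and 532 against 458 RPM. Oligodendrocyte markers were at 176 against 168 and 255 against 189 RPM. As normalized counts their deep pair had the opposite order, at 160 against 165, so their order depends on the scaling. Neuronal and endothelial sums were not higher on the positive side at both depths. The part of these lists in the somatic values of the 3 genes was not tested.

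Steap4, Serpina3n and Cxcl10 had few somatic reads. Steap4 had 24 and 1 reads in the positive-side pair, against 14 and 0 in the negative-side pair. Serpina3n had 1 read in the 4 somatic libraries together, in the shallow positive-side one, and Cxcl10 had 1 read in the deep positive-side one. A difference between treatments could not be detected at this depth for Serpina3n and Cxcl10.

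**Figure D3:**
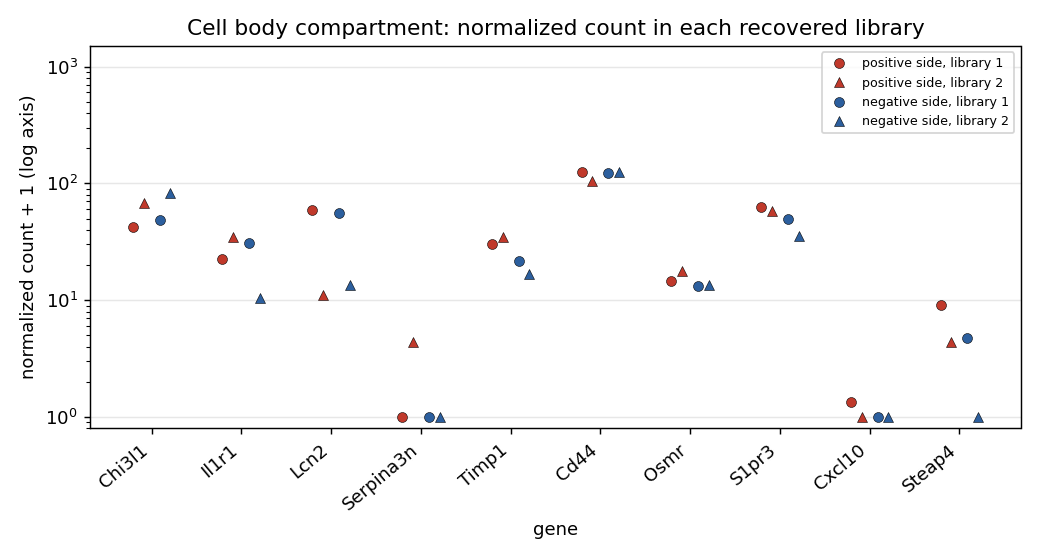
Normalized count plus 1, on a log axis, of each of the 10 genes in the 4 recovered somatic libraries, with circles for the deep library and triangles for the shallow library of a side. Cd44 is even across the libraries, Lcn2 separates by depth at 57.6 and 54.5 against 10.1 and 12.5, and Timp1, Osmr and S1pr3 have both positive-side libraries above both negative-side ones.

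The third comparison sets the axonal and somatic differences side by side, as a description. The axonal minus somatic difference in log2 fold change, from the authors' deposited tables, was 3.82 (SE 0.71) for Chi3l1, 3.60 (SE 1.00) for Il1r1, 2.34 (SE 0.68) for Serpina3n, 2.14 (SE 1.14) for Lcn2 and 2.04 (SE 0.72) for Cd44. It was 0.56 (SE 0.93) for Timp1, 0.89 (SE 1.00) for S1pr3, 0.89 (SE 1.09) for Steap4, 0.37 (SE 1.00) for Osmr and -0.45 (SE 0.89) for Cxcl10. Deposited values were drawn toward 0 more in soma than in axons. Where the mean was 10 or more and the recovered ratio 2-fold or more, the median of deposited over recovered log2 values was 0.88 in axons and 0.52 in soma.

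**Figure D4:**
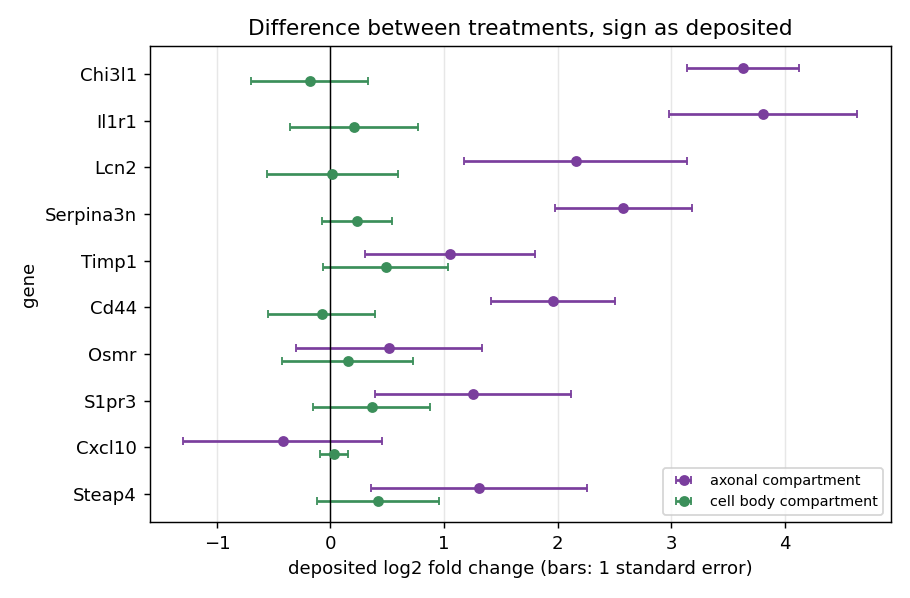
Log2 fold change of the 10 genes in the authors' deposited tables, with bars of 1 standard error, in the axonal and the cell body compartment, sign as deposited. Chi3l1 and Il1r1 lie at 3.63 and 3.81 in axons, and somatic values lie between -0.18 and 0.49.

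The levels of the 10 transcripts in the 2 compartments were not themselves used to choose them. The axonal levels of Chi3l1 and Il1r1 come from the same libraries whose differences chose these 2 genes, so they are not independent of that choice. The tables were normalized separately, so a level is given in RPM, and levels are compared within a gene only, since transcript lengths were not used. Over 6995 genes averaging 10 or more in both tables, the median ratio of axonal to somatic share of recovered reads was 0.87.

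Serpina3n was the 1 gene of the 10 whose axonal libraries were all above all somatic ones. It had 325 and 273 RPM in the positive-side axonal libraries, 48.5 and 39.4 RPM in the negative-side pair, and 3.80 in 1 somatic library against 0 in the other 3. In reads, 273 of 1353498 axonal reads and 1 of 6904607 somatic reads were assigned to it, a ratio of pooled shares of 1393 with an exact 95% interval from 248 to 55206 that covers counting error only. The single somatic read was in a shallow library, and with libraries weighted equally the ratio of mean shares was 190 over recovered reads, below that interval, so its size is not settled by 1 read. Serpina3c and Serpina3m had 0 somatic reads.

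The negative-side axonal libraries were nearer to soma than the positive-side ones for several genes. Chi3l1 had 1877 and 944 RPM in positive-side axonal libraries, 128 and 74.4 RPM in the negative-side pair, and from 45.6 to 89.6 in the 4 somatic libraries. Lcn2 had 857 and 843, then 183 and 13.1, against 11.4 to 63.4 in soma. Il1r1 had 143 and 168, then 6.92 and 4.38, against 10.3 to 38.0 in soma, so its negative-side axonal libraries lay below all somatic ones. Cd44 showed the same order, with 425 and 338, then 114 and 70.0, against 118 to 138 in soma.

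The remaining genes had ranges that overlapped between compartments. Timp1 ranged from 30.6 to 100.3 RPM in axons and from 17.2 to 38.0 in soma, and Osmr from 13.8 to 100.7 and from 12.6 to 19.0. S1pr3 ranged from 6.92 to 83.6 and from 37.9 to 68.3. Its axonal to somatic ratio of mean shares was 0.97 over recovered reads and 0.64 over all summed means. Steap4 ranged from 0 to 90.8 in axons and from 0 to 8.91 in soma.

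**Figure D5:**
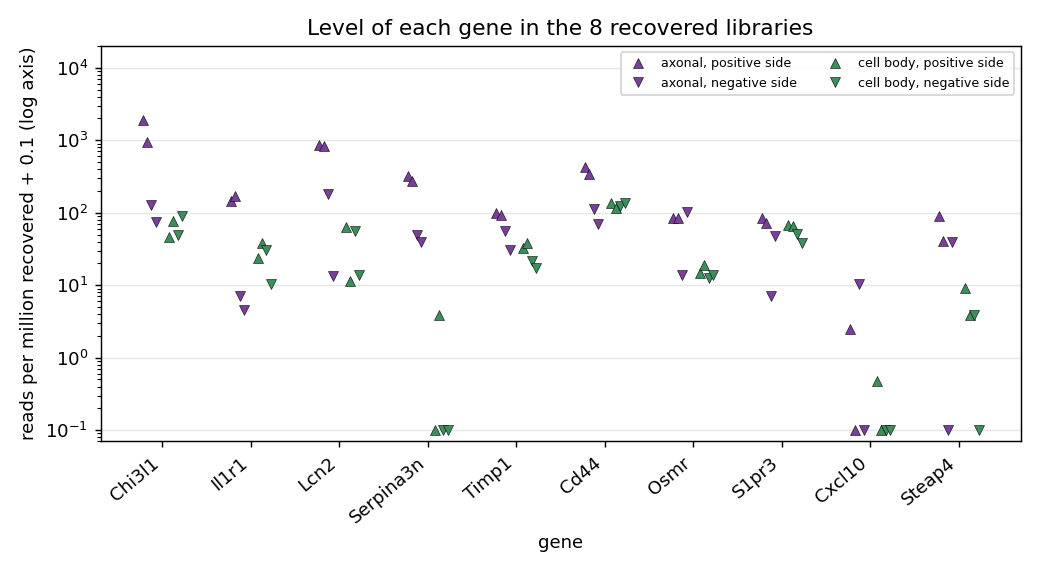
RPM (reads per 1000000 recovered reads), plus 0.1 on a log axis, of the 10 genes in the 4 axonal and 4 cell body libraries, with the side of each library shown by the direction of the triangle. Serpina3n lies from 39.4 to 325 in axons and at 0 in 3 somatic libraries, and the negative-side axonal values of Il1r1 and Cd44 lie below the somatic ones.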

How the data were processed

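RNA of 8 samples was read from 2 tables of the authors' own comparisons, mapped to the groups of the sample titles. The tools named in the submitters' processing notes are TopHat2, Trim Galore, DESeq2 and SAMtools. Their versions, the genome build and the counter are not stated in what was used here. Per the file headers, the deposited columns are a mean normalized count (a signal over 4 libraries), the log2 fold change and its error, a Wald score, and a p-value with its adjusted value. Calls are the authors' adjusted p under 0.05 (DESeq2, over all genes with one).

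Each deposited mean adds up 4 whole numbers of reads, weighted by a unit fixed for each library, which genes with 1 read give to 15 significant digits. For means up to 500, 100% of values had exactly 1 solution and 0% of shifted decoys had any, and from 500 to 1000 decoys had one in 7.69% (axons) and 4.11% (soma); higher means were not solved. The method was tested on simulated data. Recovered genes made up 14.9% (axons) and 22.6% (soma) of all summed means. The library size factors were 1.32 and 1.28 on the positive and 0.952 and 0.740 on the negative side of axons, and 2.97 and 0.297 against 3.74 and 0.320 in soma. The sign of single-read genes gave each library's side. Recovered and deposited signs agreed in 100% of genes with a mean of 10 or more and at least a 2-fold ratio, 2118 in axons and 218 in soma. Libraries could not be matched to sample titles and entered no test. Ratios of side means used a pseudocount of 1. In soma, 10 of 12 astrocyte markers were recovered, all but Gfap and Slc1a3, whose means of 3360 and 1114 were too high to be solved. The exact interval of the pooled read ratio covers counting error only, whereas the interval of a log2 fold change was built from the authors' standard error.

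Named genes were the 10 members, every called gene of 13 gene lists and 6 marker lists, the 2 non-members with the highest mean over both tables of lists without a call, the 2 with the highest axonal mean of marker lists, and the 5 genes nearest to Chi3l1. Some genes that this rule names are not reported here. The members and lists were chosen with earlier results of these data known. Promoters came from RefSeq (GRCr8). Python 3.11.15, pandas 2.3.3, scipy 1.17.1 and numba 0.67.0 were used.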

Additional observations from a re-analysis of the deposited data

How the results depend on the processing

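The count of members called in axons was 3 as deposited, 4 when p-values were adjusted over genes averaging 10 or more, and 3 when they were adjusted over every gene with reads or when fold changes were centred on abundant somatic genes (mean 100 or more). Il1r1 joined the calls when p-values were adjusted over genes averaging 10 or more and when they were adjusted over every gene with reads. Cd44 was lost in the latter setting (adjusted p = 0.106, from 0.00675 as deposited, DESeq2). The count in soma was 0 in each. Scaling axonal libraries by the median ratio over those somatic genes lowered log2 ratios by 0.51 in the median of all genes, and the signs of all 10 members were kept under it, under library totals and under both other pseudocounts. Leaving out 1 axonal library changed the sign in 2 of 40 values: Osmr ranged from -0.20 to 2.42 and Cxcl10 from -1.59 to 0.46. Chi3l1 ranged from 3.28 to 4.24, Il1r1 from 4.04 to 4.44 (but 3.03 with a pseudocount of 5 and 3.76 under the somatic scaling), Serpina3n from 2.63 to 2.88 and Cd44 from 1.79 to 2.45. In soma, 8 of 40 such values did not keep their sign, a count that includes values of exactly 0 for Serpina3n and Cxcl10. No paired analysis was possible because the tables hold no column per sample and the recovered libraries carry no replicate number. Pairs formed by depth in soma, which no label gives, did not keep the sign of 3 of 10 members within the deep and 2 within the shallow libraries. These counts include values of exactly 0, for Serpina3n in the deep pair and Cxcl10 in the shallow pair. With few reads in Il1r1, Steap4 and Cxcl10, depth limits their ratios.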
